A study of Mus musculus with 4 samples.

Results

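MGE-type inhibitory neurons, the cortical GABA neurons that express the transcription factor Lhx6, made up 428 of the 19472 cells that met the limits on cell quality in 3 unsorted single-cell RNA-seq libraries of the mouse ventromedial prefrontal cortex. These limits were 500 to 8000 genes, 1000 to 60000 unique molecular identifiers (UMIs, each counting 1 captured RNA molecule) and under 20% of UMIs from mitochondrial genes. Cells were chosen by their own counts of marker genes. A cell was taken as MGE-type if the authors' table of excitatory neurons did not list it, if it held at least 4 UMIs of Gad1 and Gad2 together and at most 3 of Slc17a7, and if it held at least 1 UMI of Lhx6 and more of Lhx6 than of Adarb2. The libraries gave 151, 146 and 131 such cells in replicates 1, 2 and 3. Inhibitory neurons with more Adarb2 than Lhx6 UMIs (CGE-type, 799 cells) and the authors' excitatory neurons (7765 cells) served for comparison.

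Cortical GABA neurons are born outside the cortex, in the ganglionic eminences, and migrate into it. Those of the medial ganglionic eminence (MGE) are specified by Nkx2-1 and its target Lhx6, and mature mainly into somatostatin (Sst) neurons, which contact the dendrites of pyramidal cells, and parvalbumin (Pvalb) neurons, which contact cell bodies and initial segments of axons and fire at high rates. Those of the caudal ganglionic eminence (CGE) depend on factors such as Prox1 and Nr2f2 and include the Vip, Lamp5 and Sncg neurons. Most cortical GABA neurons project locally, and a minority, among them Sst neurons that express Chodl and Nos1, send long-range axons.

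The study injected 5 barcoded retrograde viruses (rAAV2-retro carrying EGFP and a barcode) into 5 targets of this region: the agranular insular cortex, dorsomedial striatum, mediodorsal thalamus, basolateral amygdala and lateral hypothalamus. All mice were male C57BL/6 animals, 8 weeks old at injection, and every library came from injected mice, so that no uninjected control was compared. The prelimbic and infralimbic cortex was dissected, dissociated and either loaded unsorted (3 libraries, each titled as 1 mouse) or sorted for EGFP first (1 library of 3 mice). Although the labels call the cells retrogradely labelled neurons, the unsorted libraries held all cell kinds. The methods name 1 mouse for each unsorted library, so the p-values below measure the spread between 3 mice with 1 library each, and animal and library cannot be told apart.

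The 3 unsorted libraries held 7243 to 8040 cell barcodes and 83039497 to 87809114 UMIs. MGE-type cells had a median of 17094, 17853 and 18506 UMIs in replicates 1 to 3, CGE-type cells 10637, 10644 and 12252, so MGE-type cells were the more deeply sampled of both in every library. Of 22660 distinct barcodes, 65 occurred in more than 1 unsorted library, and 4 MGE-type cells carried one of these. No doublet caller was run.

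The cells matched their label by markers that the rule did not use. Sst was present in 368 of 428 cells, with a median of 120 UMIs per cell and a highest value of 985, and Pvalb in 62, with a highest value of 119. Nkx2-1, the factor at the head of the lineage, was seen in only 7 cells, and 5 of these met neither of the limits on Sst and Pvalb given below. The rule's own genes are given as a description only: Gad1 and Gad2, the GABA-synthesizing enzymes, had medians of 9 and 17 UMIs per cell, Lhx6 (chr2:36081953-36105408, minus strand, GRCm38) a median of 3 with 78 cells at 1 UMI, and 421 cells had no Adarb2 and 337 no Slc17a7, the vesicular glutamate transporter.

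At the limits of the rule, 1 cell just inside held 4 Gad1 and Gad2 UMIs and 2 cells just outside held 3. Of Slc17a7, 2 cells inside held 3 UMIs and 1 outside held 4. The most populated limit was that of Lhx6: of the 78 cells inside with 1 Lhx6 UMI, 62 held at least 5 Sst UMIs, and of 49 inhibitory cells outside, with neither Lhx6 nor Adarb2, 24 did.

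Glial and vascular markers were low in most MGE-type cells. No more than 1 UMI of every list of microglial, oligodendrocyte, precursor, astrocyte, endothelial and mural markers was found in 288 of 428 cells. At least 5 UMIs were found for microglial markers in 15 cells (up to 149 UMIs in a cell), for oligodendrocyte markers in 7 (up to 173), for precursor markers in 3 (up to 33), for astrocyte markers in 3 (up to 33), for endothelial markers in 6 (up to 94) and for mural markers in 4 (up to 132). Of the cells with endothelial and mural markers, 5 and 4 were in replicate 2. Among CGE-type cells the corresponding numbers were 15, 20, 10, 2, 9 and 14 of 799. Markers of excitatory neurons were more widespread: 67 MGE-type and 100 CGE-type cells held at least 5 UMIs of them (up to 9 and 12 in a cell), and 49 and 110 held none.

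MGE-type cells were 2.15%, 2.31% and 2.14% of the cells within limits (2.20% ± 0.0931, SD, n = 3 libraries). They were 34.9% ± 1.25 of MGE- and CGE-type cells together, and this share lay between 33.5% and 35.7% in the 3 libraries. These are shares of cells recovered after dissociation. The share among MGE- and CGE-type cells was 32.7% to 37.4% under other limits of the rule. It was 25.0% when the rule was applied again to counts thinned to 5000 UMIs per cell, with shallower cells left out. Of the 424 MGE-type cells thinned, 243 still held a UMI of Lhx6. By the choice before thinning, the cells at that depth were 424 MGE-type and 768 CGE-type.

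Nearly all MGE-type cells belonged to 1 of 2 kinds that hardly overlapped. Sst-type cells, with at least 5 Sst UMIs and more Sst than Pvalb, numbered 127, 120 and 114, which is 84.4% ± 2.43 of MGE-type cells. Pvalb-type cells, with at least 3 Pvalb UMIs and more Pvalb than Sst, numbered 13, 14 and 9, which is 8.36% ± 1.38. The Pvalb-type share was 5.09% under stricter limits and 5.11% at equal depth. The remaining 11, 12 and 8 cells (7.20% ± 1.06) met neither limit. A UMI of both genes was present in 19 cells: 15 of the 361 Sst-type cells held a Pvalb UMI and 4 of the 36 Pvalb-type cells held an Sst UMI. Sst-type cells outnumbered Pvalb-type cells in all 3 libraries. The median share of mitochondrial UMIs was 6.29% in Sst-type, 10.3% in Pvalb-type and 9.06% in the remaining cells, and its part in the shares of these kinds was not tested.

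**Figure D1:**
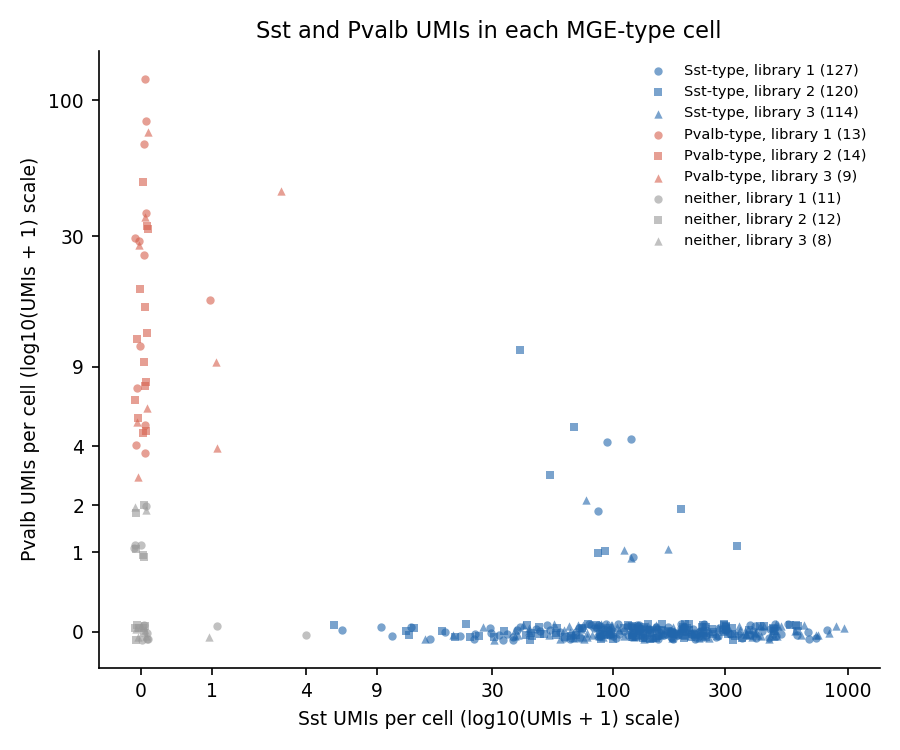
Sst UMIs (horizontal) against Pvalb UMIs (vertical) in each of the 428 MGE-type cells, both axes on a log10(UMIs + 1) scale with a small jitter, colours for the kind and marker shapes for the library. The 361 Sst-type cells lie along the bottom, the 36 Pvalb-type cells along the left, and 31 cells near the origin belong to neither.

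MGE-type and CGE-type cells differed at 1235 of 11521 genes tested, 554 higher and 681 lower in MGE-type cells. A gene was called where the adjusted p of edgeR's quasi-likelihood test, with the library as a block, was under 0.05 and the log2 fold change was at least 1 in size. Thus 10.7% of genes were called, 4.81% higher and 5.91% lower, and the median log2 fold change over all genes was -0.01. UMIs were summed per library and kind, and levels are given as counts-per-million of the UMIs in those sums (CPM). Gad1, Gad2, Slc17a7, Lhx6 and Adarb2 were left out because they chose the cells. Detection per cell is also given at equal depth for some genes, over 424 MGE-type and 768 CGE-type cells.

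Somatostatin had 1 of the 10 highest log2 fold changes. Sst (chr16:23889573-23890958, minus strand, GRCm38), the precursor of a peptide that inhibits release of hormones and transmitters, stood at 8309, 8354 and 10452 CPM in MGE-type cells of replicates 1 to 3 and at 5.89, 2.99 and 33.4 CPM in CGE-type cells. The groups did not overlap, and the log2 fold change was 9.39 ± 0.16 (SE, adjusted p = 8.0e-21). At equal depth 85.5% ± 2.81 of MGE-type and 2.48% ± 0.287 of CGE-type cells held a UMI of Sst (SD, n = 3). In replicate 3 of the CGE-type cells, 93 of the 107 Sst UMIs came from 1 cell, which held 2 Lhx6 and 4 Adarb2 UMIs, while no other CGE-type cell held more than 2. The gene is a classic target of cAMP signalling, and the window before its RefSeq start holds the 8 bases to which the factor CREB binds. That window is shown because it carries the best-known control element of the gene that marks most of these cells, with the element TGACGTCA in capitals, 5′ to 3′ on the gene's strand (RefSeq, GRCm38.p6, chr16:23890845-23891094, minus strand, the 250 bases before the RefSeq start at position 23890844):
Sst: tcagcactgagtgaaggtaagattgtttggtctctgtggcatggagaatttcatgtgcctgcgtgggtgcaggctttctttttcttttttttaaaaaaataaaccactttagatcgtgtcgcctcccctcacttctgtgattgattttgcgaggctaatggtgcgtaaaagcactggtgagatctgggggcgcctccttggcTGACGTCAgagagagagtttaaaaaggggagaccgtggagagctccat
A second precursor gene of the list of 18 neuropeptide genes, Cartpt (cocaine- and amphetamine-regulated transcript), carries the same 8 bases (chr13:99900684-99900933, minus strand):
Cartpt: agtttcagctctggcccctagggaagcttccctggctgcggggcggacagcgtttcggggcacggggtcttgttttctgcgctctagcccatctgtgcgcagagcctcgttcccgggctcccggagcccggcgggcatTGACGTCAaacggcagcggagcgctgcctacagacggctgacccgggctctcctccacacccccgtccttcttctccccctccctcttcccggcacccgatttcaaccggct
The element begins 48 bases before the RefSeq start in Sst and 112 in Cartpt. The GENCODE gene models reach further upstream, so that 114 of the 250 bases of the Sst window and all 250 of the Cartpt window lie inside them. It reads the same on both strands, so each match counts once. Of the 18 listed genes, 15 had a window, and these 2 held the element. Of all 32851 windows of that length, 508 did (1.55%). The first count is of genes and the second of windows, and Pdyn and Adcyap1 had 2 windows each. A match is a description of letters and not of binding.

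Of 16 neuropeptide genes and related ligands tested, 7 were higher and 7 lower in MGE-type cells (median log2 fold change 0.27). The higher ones were Sst, Cort, Tac1, Pdyn, Cartpt, Rln1 and Crhbp. Crhbp (chr13:95431371-95444924, minus strand), which encodes a secreted protein that binds and sequesters corticotropin-releasing hormone, stood at 274, 287 and 291 CPM against 0.295, 0 and 0.624 CPM in CGE-type cells, where 3 UMIs were counted in all. Pooled over libraries its level was higher by a factor of 972 (exact 95% interval 332 to 4714), edgeR's adjusted p being 5.1e-20. Pdyn, the precursor of the dynorphins that act on kappa opioid receptors, stood at 76.7, 114 and 101 CPM, and with 2 UMIs in CGE-type cells its pooled ratio was 498 (exact 95% interval 137 to 4122). Cort, which encodes cortistatin, a relative of somatostatin that binds the same receptors, stood at 680.4, 473 and 727 against 19.4, 26.7 and 26.8 CPM (log2 fold change 4.67 ± 0.10 SE, adjusted p = 2.5e-19).

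Tac1, the precursor of substance P, stood at 95.6, 186 and 88.4 CPM in MGE-type and at 1.18, 0 and 0.937 CPM in CGE-type cells (7.44 ± 0.24 SE, adjusted p = 3.8e-16). The groups did not overlap, and replicate 2 was the highest of the MGE-type libraries. Cartpt stood at 113, 142 and 118 against 0.589, 0.816 and 16.5 CPM, the highest CGE-type value being that of replicate 3 (log2 fold change 4.45 ± 0.32 SE, adjusted p = 2.5e-10).

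The 7 lower peptide genes were Vip, Cck, Tac2, Pnoc, Penk, Pthlh and Crh. Vip (chr10:5639218-5647617, plus strand), whose product marks CGE-derived neurons that inhibit Sst neurons, stood at 4.73, 2.98 and 3.65 CPM in MGE-type cells and at 5065, 6083 and 6067 CPM in CGE-type cells (log2 fold change -10.54 ± 0.07 SE, adjusted p = 1.9e-27). At equal depth a UMI of Vip was seen in 1.89% of MGE-type, 1.93% of non-neuronal and 61.2% of CGE-type cells. Cck, the precursor of cholecystokinin, stood at 152, 142 and 109 against 4554, 4964 and 5178 CPM (-5.18 ± 0.07 SE, adjusted p = 2.2e-22), with a UMI in 23.5% ± 3.96 against 64.9% ± 2.27 of cells at equal depth. Tac2, the precursor of neurokinin B, stood at 24.0, 42.0 and 38.9 against 938, 972 and 1058 CPM (-4.83 ± 0.08 SE, adjusted p = 6.8e-21). For Crh, the stress hormone that Crhbp binds, the values were 74.5, 58.8 and 79.5 against 236, 224 and 248 CPM (-1.74 ± 0.07 SE, adjusted p = 2.7e-14). Npy, the precursor of neuropeptide Y, was abundant in both groups, at 1708, 2090.04 and 2456 and 1163, 1159 and 1344 CPM. Its log2 fold change of 0.76 ± 0.05 (SE, adjusted p = 2.0e-11) was below the limit of 1, as was that of Cbln4, a secreted synapse organizer (-0.22 ± 0.15).

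**Figure D2:**
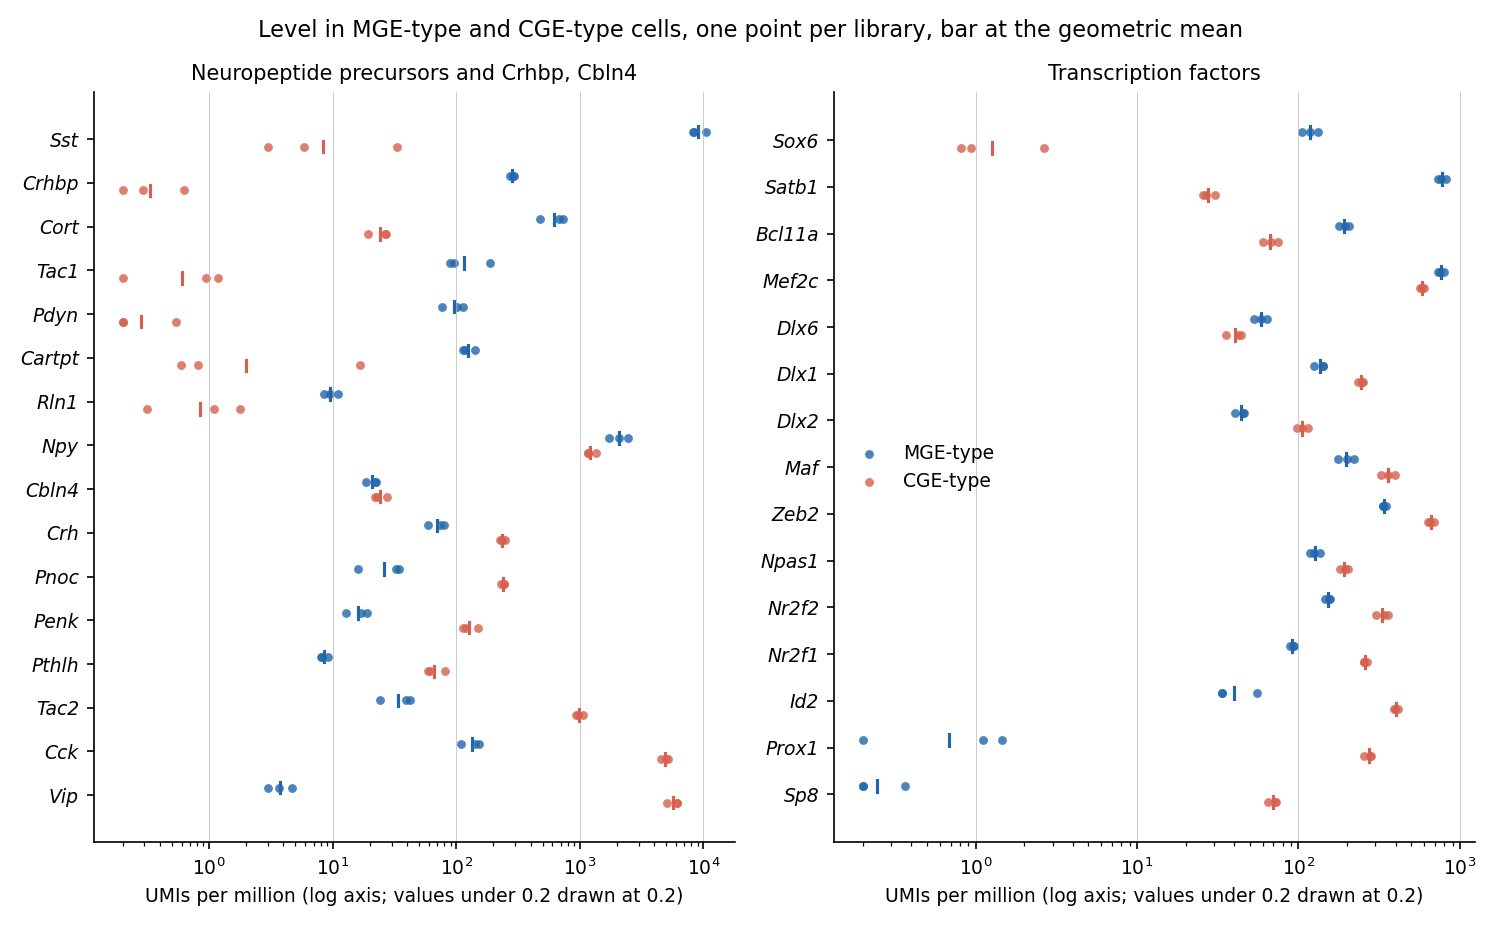
Level in CPM (log axis) of neuropeptide genes (left) and transcription factors (right) in MGE-type and CGE-type cells, 1 point per library (n = 3) and a bar at their geometric mean, with values under 0.2 drawn at 0.2. Sst, Crhbp, Pdyn and Tac1 at the top left lie far to the right in MGE-type cells, and Vip at the bottom left and Prox1 and Sp8 at the bottom right in CGE-type cells.

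Transcription factors of the 2 lineages differed in opposite directions where they were called. Of 8 tested factors of the MGE lineage, 4 were higher (among them Sox6, Satb1 and Bcl11a) and 4 not called, with a median log2 fold change of 1.16. Sox6, which acts after Lhx6 to position and mature these neurons, stood at 105, 133 and 118 CPM against 2.65, 0.816 and 0.937 CPM (6.31 ± 0.19 SE, adjusted p = 1.6e-16). Satb1, a chromatin organizer that Sst neurons need to mature, stood at 820.01, 736 and 765 against 25.6, 26.7 and 30.3 CPM (4.81 ± 0.07 SE, adjusted p = 6.1e-22). Maf, a basic leucine zipper factor of migrating MGE neurons, was not called, with 176, 221 and 199 against 394, 359 and 326 CPM and a log2 fold change of -0.86 ± 0.07. Sox6 transcripts were also present in non-neuronal cells, at 76.2 CPM.

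Of 8 tested genes of the CGE lineage list, 6 were lower in MGE-type cells and 2 not called, with a median of -2.40. That list includes Htr3a, which encodes a channel subunit, and among its 7 transcription factors 5 were lower. The middle log2 fold change of these 7 was that of Nr2f1, at 88.3, 93.7 and 92.8 against 256, 255 and 268 CPM (adjusted p = 3.2e-14). Prox1, a homeodomain factor that CGE neurons need, stood at 1.45, 1.12 and 0 CPM against 255, 278 and 283 CPM (-8.20 ± 0.18 SE, adjusted p = 5.9e-19). Prox1os, which overlaps Prox1 on the opposite strand and was counted with the default settings of Cell Ranger, had 2 UMIs in MGE-type cells, and its pooled ratio of CGE-type to MGE-type levels was 371 (exact 95% interval 103 to 3071). Sp8, a zinc finger factor, had 1 UMI in MGE-type cells, and the pooled ratio of CGE-type to MGE-type levels was 550.3 (exact 95% interval 98.4 to 21764). Nr2f2, also known as COUP-TFII, was less divided: 157, 154 and 146 against 358, 338 and 302 CPM, or -1.13 ± 0.06 (SE, adjusted p = 6.3e-13) on the log2 scale, a difference that fell short of the limit of 1 when cells were counted at equal depth, when cells with glial or vascular markers were left out and when Sst-type cells alone were compared.

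The Dlx factors that all forebrain GABA neurons share were present in both groups. Dlx2 (-1.26 ± 0.09 SE, adjusted p = 2.3e-10) and the noncoding RNA Dlx6os1 (-3.31 ± 0.08 SE, adjusted p = 3.7e-18) were lower. The 5 tested genes of GABA synthesis, transport and breakdown included 1 called gene, Slc6a11, a GABA transporter that glia also use (-1.79 ± 0.15 SE, adjusted p = 5.0e-09). Slc32a1, which loads GABA into vesicles, differed by -0.07 ± 0.05 (SE, adjusted p = 0.29) on the log2 scale and was not called.

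The genes named by size of change were, upward, Crhbp, Sst, Pdyn, Moxd1, Tac1, Tmem132c, Lgals1, Unc13c, Sox6 and Lypd6. Lgals1, which encodes the sugar-binding protein galectin-1, stood at 296, 315 and 375 CPM against 3.54, 2.18 and 1.56 CPM (7.05 ± 0.13 SE, adjusted p = 5.4e-20). Lypd6, an Ly6-type membrane protein that acts on nicotinic receptors, stood at 449, 439 and 434 against 5.30, 6.26 and 5.31 CPM (6.28 ± 0.10 SE, adjusted p = 1.7e-21). Unc13c, of the Munc13 family that primes synaptic vesicles, stood at 57.4, 74.8 and 66.9 against 0.295, 0.544 and 1.25 CPM (6.53 ± 0.23 SE, adjusted p = 1.9e-15), and Tmem132c at 74.5, 64.7 and 54.3 against 0.295, 0.544 and 0.312 CPM (7.23 ± 0.24 SE, adjusted p = 9.0e-16). Moxd1, which encodes a relative of dopamine beta-hydroxylase, had 2 UMIs in CGE-type cells and 52.0, 48.4 and 48.2 CPM in MGE-type cells, a pooled ratio of 255 (exact 95% interval 70.0 to 2110.3). In none of these genes did the groups overlap.

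Downward, the genes named were Htr3a, Vip, Cxcl14, Sp8, Prox1os, Prox1, Frem1, Sln, Tnfaip8l3 and Sncg. Htr3a, a subunit of the serotonin-gated ion channel that marks CGE-derived neurons, had no UMI in any of the 428 MGE-type cells against 183, 220.4 and 227 CPM in CGE-type cells. With a floor of 3 counts over the MGE-type group its level was at least 553-fold lower. Cxcl14, a chemokine, stood at 1.09, 0.372 and 2.43 against 1489, 1239 and 1294 CPM (-10.01 ± 0.11 SE, adjusted p = 1.7e-23). Sncg, which encodes gamma-synuclein, stood at 0, 0 and 3.65 against 154, 142 and 142 CPM (-6.95 ± 0.26 SE, adjusted p = 5.4e-15), and Tnfaip8l3, a lipid-binding protein, at 1.45, 0 and 0.811 against 146, 145 and 129 CPM (-7.46 ± 0.21 SE, adjusted p = 7.2e-17). Frem1, an extracellular matrix protein, and Sln, a regulator of the calcium pump of the endoplasmic reticulum, each had 1 UMI in MGE-type cells, with pooled ratios of CGE-type to MGE-type levels of 316 (exact 95% interval 56.5 to 12523) and 316 (exact 95% interval 56.3 to 12493).

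**Figure D3:**
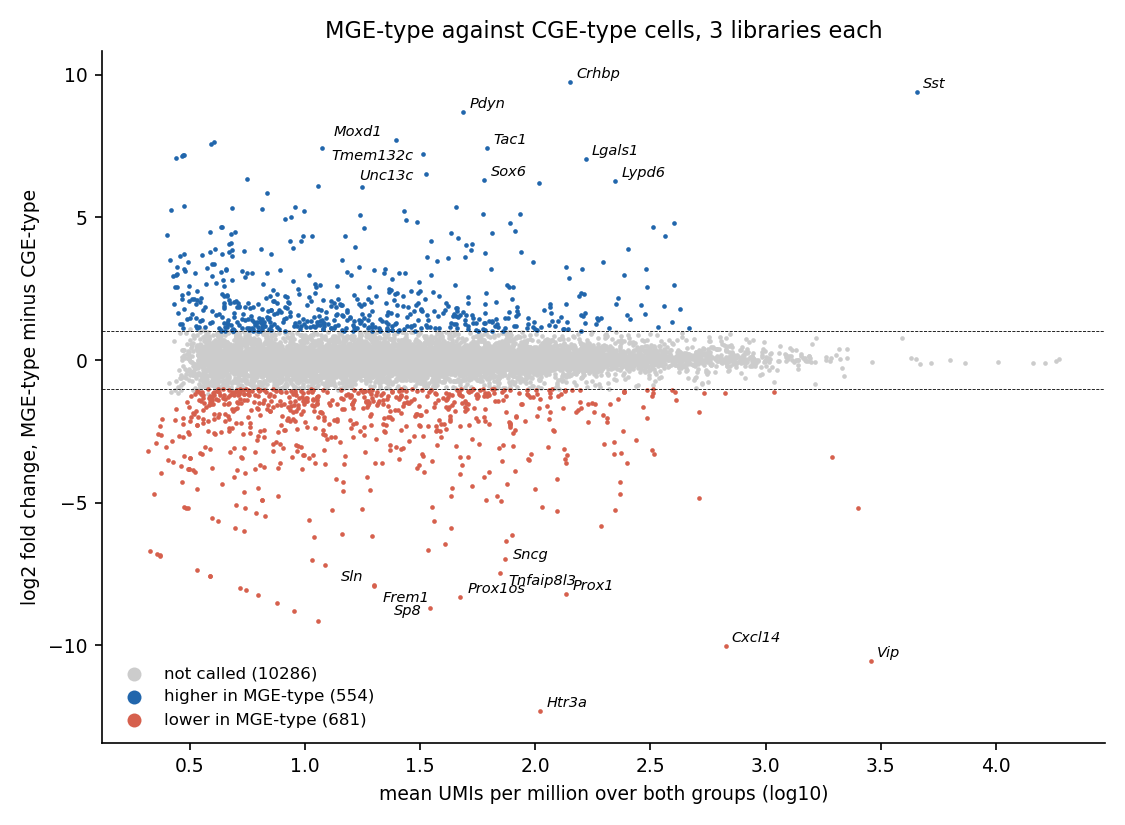
log2 fold change of MGE-type minus CGE-type cells (vertical) against the mean CPM over both groups on a log10 scale (horizontal), 1 point per gene tested, with the 10 genes named in each direction and dashed lines at a log2 fold change of 1 and -1. The 554 higher and 681 lower genes are coloured and 10286 are grey.

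Genes known from Sst and Pvalb neurons moved in both directions. Of 17 tested markers of Sst neuron types, 12 were higher and 2 lower (median 2.97). Grin3a, an NMDA receptor subunit, stood at 534, 535 and 573 against 54.5, 62.0 and 61.5 CPM (3.20 ± 0.06 SE, adjusted p = 6.1e-20), Calb1, the calcium buffer calbindin, at 695, 711 and 665 against 118, 109 and 104 CPM (2.64 ± 0.05 SE, adjusted p = 1.4e-19), and Nos1, the neuronal nitric oxide synthase, at 209.7, 299 and 227 against 21.5, 22.3 and 34.3 CPM (3.25 ± 0.11 SE, adjusted p = 1.6e-15). The lower ones were Calb2, which encodes calretinin (-2.79 ± 0.06 SE, adjusted p = 2.1e-18), and Rxfp1, a relaxin receptor (-3.48 ± 0.22 SE, adjusted p = 4.1e-11). Reln, the secreted glycoprotein reelin that both lineages use, was not called (0.59 ± 0.05). Of 14 tested markers of Pvalb neuron types, 6 were higher and 4 lower (median 0.66). Slit2, an axon guidance ligand, stood at 39.3, 32.7 and 33.2 against 0.589, 0 and 0.937 CPM (6.05 ± 0.33 SE, adjusted p = 3.0e-12). Erbb4, the neuregulin receptor, was lower, 231, 204 and 162 against 415, 418 and 400.2 CPM (-1.05 ± 0.06 SE, adjusted p = 2.1e-11), but was no longer called without replicate 3. Cox6a2, a cytochrome c oxidase subunit, was higher by 1.13 ± 0.11, but lower by a log2 fold change of -1.48 when Sst-type cells alone were compared, a comparison chosen after seeing the data. Pvalb itself stood at 169, 91.1 and 88.0 against 3.24, 4.63 and 1.87 CPM (5.11 ± 0.17 SE, adjusted p = 5.8e-16).

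Of 16 tested markers of Vip, Lamp5 and Sncg neurons, 15 were lower and Reln was not called. The median was -5.17, also with Htr3a and Crispld2, which had no UMI in MGE-type cells, set to their bounds. Cnr1, the cannabinoid receptor, stood at 367, 304 and 339 against 4121, 3468 and 3109.8 CPM (-3.40 ± 0.05 SE, adjusted p = 7.8e-22). Lamp5, a lysosome-related membrane protein, had 15 UMIs in MGE-type cells, of which 14 lay in 1 cell of replicate 1. That cell also held 37 of the 70 UMIs of Hapln1, a link protein of the perineuronal net that was lower in MGE-type cells (-3.41 ± 0.25 SE, adjusted p = 4.3e-10). Of the 6 net components tested, Tnr, which encodes tenascin-R, was higher (1.81 ± 0.12 SE, adjusted p = 5.1e-11), Vcan (versican) was lower as well (-1.56 ± 0.29 SE, adjusted p = 1.7e-04), and 3 were not called.

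Potassium channel genes set the electrical behaviour of these neurons. Of 15 tested, 6 were higher in MGE-type cells and 9 not called (median 0.57). Kcnc2, a Kv3 channel for rapid repolarization, stood at 526, 434 and 414 against 119, 122 and 116 CPM (1.94 ± 0.06 SE, adjusted p = 3.4e-16), and Kcnmb4, an accessory subunit of BK channels, at 137, 128 and 131 against 18.9, 24.2 and 23.1 CPM (2.58 ± 0.10 SE, adjusted p = 9.7e-15). Kcnc1, another Kv3 channel, was not called (-0.09 ± 0.06). Of 10 sodium and calcium channel genes, 2 were higher and 1 lower. The alpha2delta subunits of calcium channels changed in opposite directions: Cacna2d2 stood at 173, 153 and 162 against 11.2, 12.8 and 10.9 CPM (3.79 ± 0.10 SE, adjusted p = 3.9e-17) and Cacna2d1 at 6.18, 3.72 and 1.62 against 117, 124 and 115 CPM (-4.91 ± 0.17 SE, adjusted p = 1.5e-15). Cacna1a, the pore of P/Q-type channels, was higher (1.24 ± 0.08 SE, adjusted p = 2.2e-11).

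Of 19 tested glutamate receptor genes, 7 were higher and 12 not called (median 0.27). Besides Grin3a they included Gria1 (1.32 ± 0.05 SE, adjusted p = 1.8e-15), Gria3 (2.24 ± 0.07 SE, adjusted p = 2.1e-16), Grik1 (1.27 ± 0.08 SE, adjusted p = 6.2e-11), Grik3 (3.86 ± 0.13 SE, adjusted p = 1.2e-15) and Grm3 (3.88 ± 0.49 SE, adjusted p = 1.8e-06), which encode AMPA, kainate and metabotropic subunits. Grik3 stood at 94.1, 109 and 92.8 CPM against 4.71, 8.43 and 7.18 CPM. The core NMDA subunits Grin1 (0.19 ± 0.06) and Grin2b (0.04 ± 0.04) were not called. Of 14 GABA receptor genes, Gabrg1 was higher (1.93 ± 0.22 SE, adjusted p = 3.7e-07) and Gabra2 (-1.04 ± 0.08 SE, adjusted p = 4.8e-10) and Gabrb2 (-1.30 ± 0.15 SE, adjusted p = 3.6e-07) were lower, with a median over the list of 0.02. Gabra2 lay near the limit of 1 and fell short of it under 5 alternatives.

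Receptors for peptides and modulators were divided, with 9 higher and 7 lower of 21 tested (median 0.19). Chrm2, the muscarinic receptor M2, had 3 UMIs in CGE-type cells against 25.8, 23.1 and 19.1 CPM in MGE-type cells, a pooled ratio of 78.0 (exact 95% interval 26.3 to 382). Oxtr, the oxytocin receptor, stood at 33.4, 31.6 and 28.0 against 0.884, 2.99 and 1.87 CPM (3.97 ± 0.26 SE, adjusted p = 6.3e-11), and Tacr1, the receptor for substance P, had a pooled ratio of 43.7 (exact 95% interval 14.5 to 216) over 3 UMIs in CGE-type cells. The opioid receptor genes Oprm1 (2.16 ± 0.36 SE, adjusted p = 5.3e-05), Oprk1 (1.31 ± 0.36 SE, adjusted p = 0.007) and Oprl1 (1.44 ± 0.18 SE, adjusted p = 9.6e-07) were higher, although Oprk1 was no longer called by DESeq2 or without replicate 3. Somatostatin receptor genes differed among themselves: Sstr1 was higher (1.98 ± 0.20 SE, adjusted p = 9.0e-08) and Sstr2 lower (-1.73 ± 0.22 SE, adjusted p = 2.3e-06), the latter not at equal depth. The neuropeptide Y receptor genes Npy1r (-4.95 ± 0.14 SE, adjusted p = 4.2e-17) and Npy2r (-6.34 ± 0.19 SE, adjusted p = 2.0e-16), the alpha-1 adrenergic receptor gene Adra1b (-3.89 ± 0.11 SE, adjusted p = 5.7e-17) and the serotonin receptor gene Htr2c (-3.46 ± 0.10 SE, adjusted p = 1.0e-16) were lower.

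Synapse organizers were also divided, with 6 higher and 5 lower of 23 (median -0.22). The neurexin ligands Nxph1 (2.97 ± 0.08 SE, adjusted p = 4.2e-17) and Nxph2 (4.93 ± 0.40 SE, adjusted p = 2.0e-09) were higher, Nxph1 at 428, 405 and 461 against 47.4, 65.8 and 50.3 CPM. Elfn1, which recruits presynaptic receptors onto Sst neurons, stood at 242, 234 and 246 against 73.1, 87.9 and 88.0 CPM (1.53 ± 0.07 SE, adjusted p = 1.2e-13). Cbln2, a cerebellin that bridges neurexins, was lower, at 5.45, 4.46 and 8.92 against 221, 284 and 225 CPM (-5.29 ± 0.13 SE, adjusted p = 5.9e-18). Of 15 tested immediate early genes, which neurons switch on with activity or dissociation, Arc was higher (1.12 ± 0.20 SE, adjusted p = 1.3e-04), Nr4a3 lower (-1.35 ± 0.17 SE, adjusted p = 1.9e-06) and 13 were not called. Arc fell short without replicate 1 and among cells with at most 1 UMI over each list of glial and vascular markers.

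Of 6 tested markers of striatal and septal GABA neurons, 3 were higher (among them Drd2 and Rgs9) and 2 lower (Ppp1r1b and Meis2), so these genes did not move as 1 group. Among markers of other cell kinds, 3 of 5 oligodendrocyte genes (among them Mag and Mobp) and 2 of 3 precursor genes (Olig1 and Olig2) were lower in MGE-type cells. Mobp and Olig2 were no longer called by DESeq2 or without replicate 1 or 3, and Meis2 by DESeq2 or without replicate 1. The 6 microglial, 1 astrocyte, 3 endothelial, 2 mural and 3 excitatory genes tested were not called, with medians of 0.02, -0.46, 0.29, -0.96 and -0.17. Among cells with at most 1 UMI over each list of glial and vascular markers, 1102 genes were called, of which 1002 were among the 1235.

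Sst-type and Pvalb-type cells are set side by side without a test, since replicate 3 held 9 Pvalb-type cells and at least 10 per library were required. The kinds were set by Sst and Pvalb, with limits chosen after these data had been seen. Pvalb-type values come from 13, 14 and 9 cells per library.

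Among peptides, Npy stood at 2060.1, 2458 and 2762 CPM in Sst-type cells and at 3.12, 61.8 and 84.3 CPM in Pvalb-type cells. Tac1 had the reverse order, 5.32, 36.9 and 6.86 against 531, 1264 and 876 CPM, so that most of the Tac1 of MGE-type cells lay outside the Sst-type cells. Cck was also the higher in Pvalb-type cells, 43.0, 29.9 and 45.3 against 797, 901 and 562 CPM. Crh, Pdyn, Penk, Tac2 and Chodl were not seen in any Pvalb-type cell. Cort and Crhbp, in contrast, were present in both, Cort at 789.7, 495 and 786 against 166, 459.9 and 359.5 CPM and Crhbp at 307, 310.1 and 309 against 96.8, 170.1 and 208 CPM. Cartpt was present in both as well, at 112, 109.8 and 105 against 128, 414 and 152 CPM.

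The factor Nr2f2 stood at 190.2, 181 and 164 CPM in Sst-type cells and at 0 in Pvalb-type cells, and Npas1, a basic helix-loop-helix factor, at 152, 139 and 153 against 3.12, 0 and 0 CPM. Both are listed as factors of the CGE lineage. Mef2c, an activity-dependent factor, stood at 551, 583 and 633 against 1606, 1674 and 2303 CPM and Satb1 at 899.7, 813 and 816 against 519, 271 and 365 CPM.

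Genes of Kv3 channels, which allow fast firing, did not share 1 order. Kcnc1 stood at 204, 178 and 201 against 997, 626 and 769.6 CPM and Kcnc2 at 434, 359 and 369 against 1162, 850.3 and 854 CPM, both higher in Pvalb-type cells in all 3 libraries. Kcnc4 was the higher in Sst-type cells, 85.1, 89.2 and 85.1 against 6.25, 7.73 and 11.2 CPM, and was present in 248 of 361 Sst-type and 4 of 36 Pvalb-type cells. Erbb4 stood at 124, 101 and 103 CPM in Sst-type and at 694, 846 and 691 CPM in Pvalb-type cells. Cox6a2 stood at 1.77, 12.7 and 11.4 against 281, 383 and 393 CPM.

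Markers of Sst neuron types were not all higher in Sst-type cells. Grin3a stood at 645, 628 and 643 CPM in Sst-type cells and at 0, 7.73 and 16.9 CPM in Pvalb-type cells, Elfn1 at 293, 275 and 275 against 3.12, 7.73 and 28.1 CPM, and Reln at 379, 371 and 388 against 18.7, 11.6 and 11.2 CPM. For none of these 3 genes did the values of the kinds overlap. Nxph1 stood at 426, 402 and 468 against 440.5, 464 and 438 CPM, which overlapped, and Mme, which encodes the peptidase neprilysin, was the higher in Pvalb-type cells, 11.1, 10.5 and 8.70 against 90.6, 104 and 67.4 CPM. The 6 microglial marker genes had mean levels of 5.81 to 29.9 CPM in Sst-type and 17.5 to 78.4 CPM in Pvalb-type cells, and their part in the values above was not tested.

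**Figure D4:**
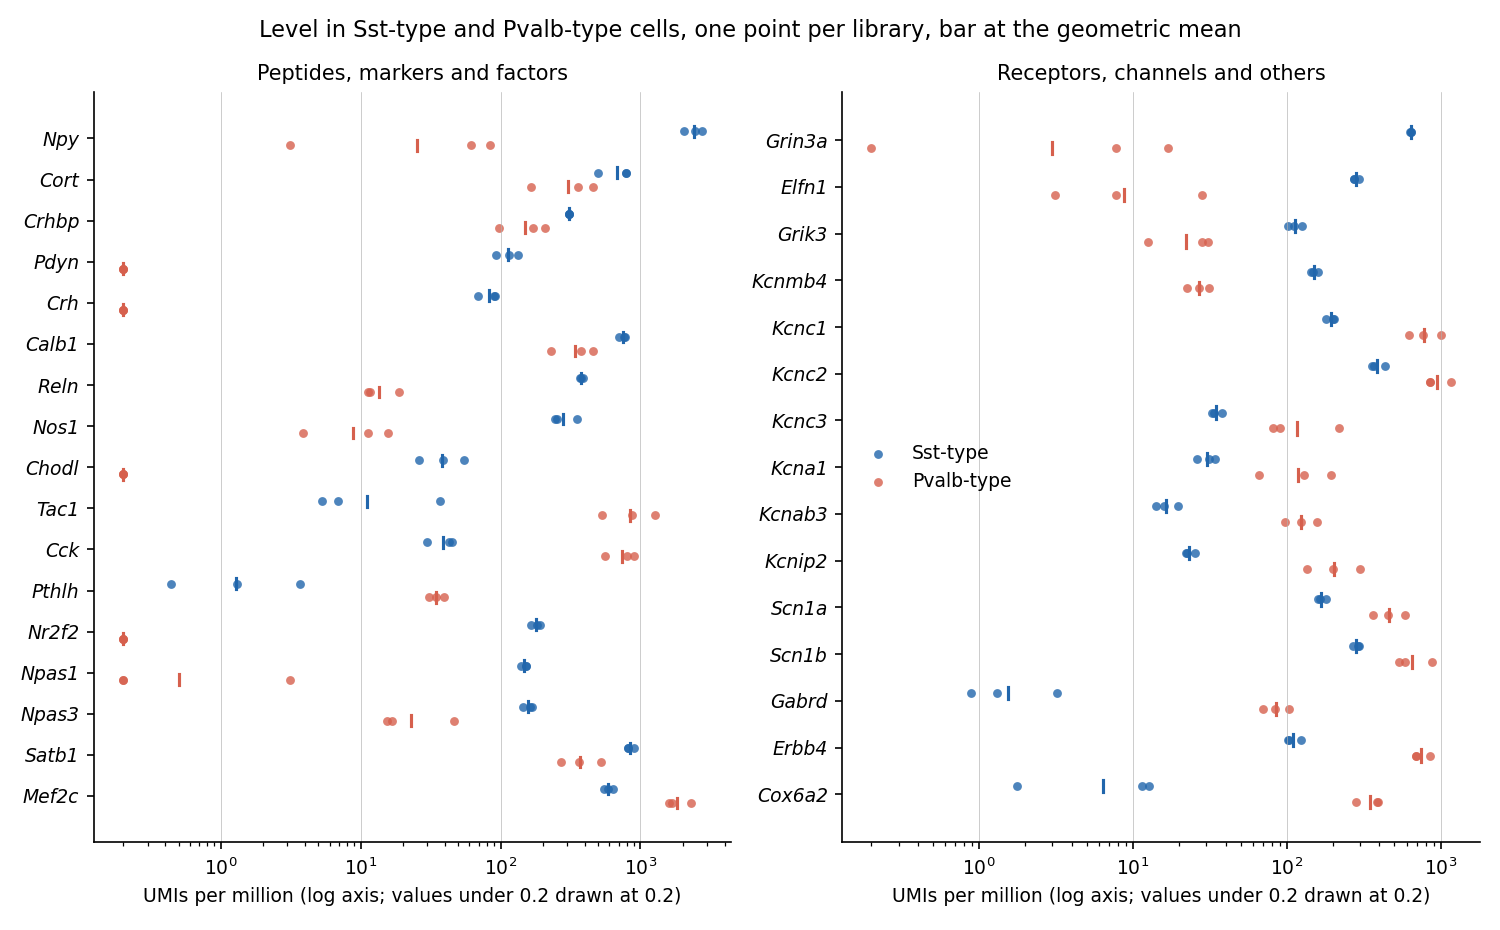
Level in CPM (log axis) in Sst-type and Pvalb-type cells, 1 point per library (n = 3) and a bar at their geometric mean, with values under 0.2 drawn at 0.2. Npy, Grin3a and Nr2f2 are far to the right in Sst-type cells, and Tac1, Erbb4 and Cox6a2 in Pvalb-type cells.

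The 31 cells that met neither limit were not alike. Some of them held 1 or 2 Pvalb UMIs, below the limit of 3. Of the 31 cells, 28 had no Sst UMI, 18 held at least 2 UMIs of Tac1, and 5 held Nkx2-1, with no cell holding both Tac1 at that level and Nkx2-1. In all 5 cells with Nkx2-1 there was Id2, a factor of the CGE list, in 4 of them Pthlh, and in 4 Cck. Summed over the 31 cells, Erbb4 stood at 654 CPM, Mef2c at 1593 CPM and Tac1 at 502 CPM. The corresponding sums over Pvalb-type cells were 745, 1793 and 863 CPM, and over Sst-type cells 109.7, 589 and 16.5 CPM.

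Several genes were concentrated in few of the Sst-type cells. Npy was more widespread, with a UMI in 248 of 361 cells. The 36 of 361 cells with the most UMIs of a gene held 68.0% of all Npy UMIs and 95.4% of Nos1 UMIs, but 29.9% of Sst UMIs. Of the genes that were concentrated in few cells, 5 were used to pick out groups, with limits chosen after seeing the values: Chodl at 2 or more UMIs (20 cells), Calb2 (19), Pdyn (21), Crh (24) and Tac2 (7), each at 10 or more. All 5 groups were found in all 3 libraries. The Crh and Tac2 groups shared 4 cells, the Chodl and Calb2 groups 3, and no other pair shared any.

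Chodl cells, the group known elsewhere for long-range axons and Nos1, held Nos1 in 20 of 20 cells, at 3847 CPM over the group against 24.8 CPM in the other Sst-type cells. Npy was present in all 20 cells as well, at 18902 against 1222 CPM. The substance P receptor gene Tacr1 was present in 19 of 20 of these cells and in 6 of 341 other Sst-type cells. Crhbp stood at 1840.1 against 197 CPM and Oxtr was present in 19 of 20 cells, against 81 of 341 others. Penk, the enkephalin precursor, was present in 13 of 20, against 26 of 341. Genes common in the other Sst-type cells were rare here: Calb1 and Reln were present in 1 cell each and Nr2f2 and Cartpt in none. The 5 groups had median UMIs per cell from 19618 to 25481, all above the 18077 of Sst-type cells as a whole, and the part of depth in the shares of cells was not tested.

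The Calb2 cells held Crhbp in 19 of 19 against 176 of 342 other Sst-type cells, Cbln4 in 13 of 19 against 30 of 342, and Pdyn in 12 of 19 against 57 of 342. Cells with 10 or more Pdyn UMIs held Reln in 21 of 21 against 271 of 340 others, and Hpse, which encodes heparanase, in 8 of 21 against 12 of 340. Oxtr was present in 18 of 19 Calb2 cells against 82 of 342 others, and in 18 of 21 Pdyn cells against 82 of 340.

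The Crh cells formed a contrast to these. No Crh cell held a UMI of Pdyn, Calb2, Chodl or Oxtr, and Crhbp, whose product binds the Crh peptide, was present in 3 of 24 against 192 of 337 other Sst-type cells. Calb1 was present in 8 of 24 against 299 of 337, and Tac2 in 6 of 24 against 17 of 337. Among the 7 Tac2 cells, 6 of 7 held Crh and none held Crhbp or Cort. Sst was lower in sum in Crh cells (6148 CPM against 10978 CPM) and Tac2 cells (3284 CPM against 10790.1 CPM), and higher in Chodl cells (16999 CPM against 10116 CPM). Grin3a was present in every cell of all 5 groups, but also in most other Sst-type cells, for instance in 324 of 341 outside the Chodl group.

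**Figure D5:**
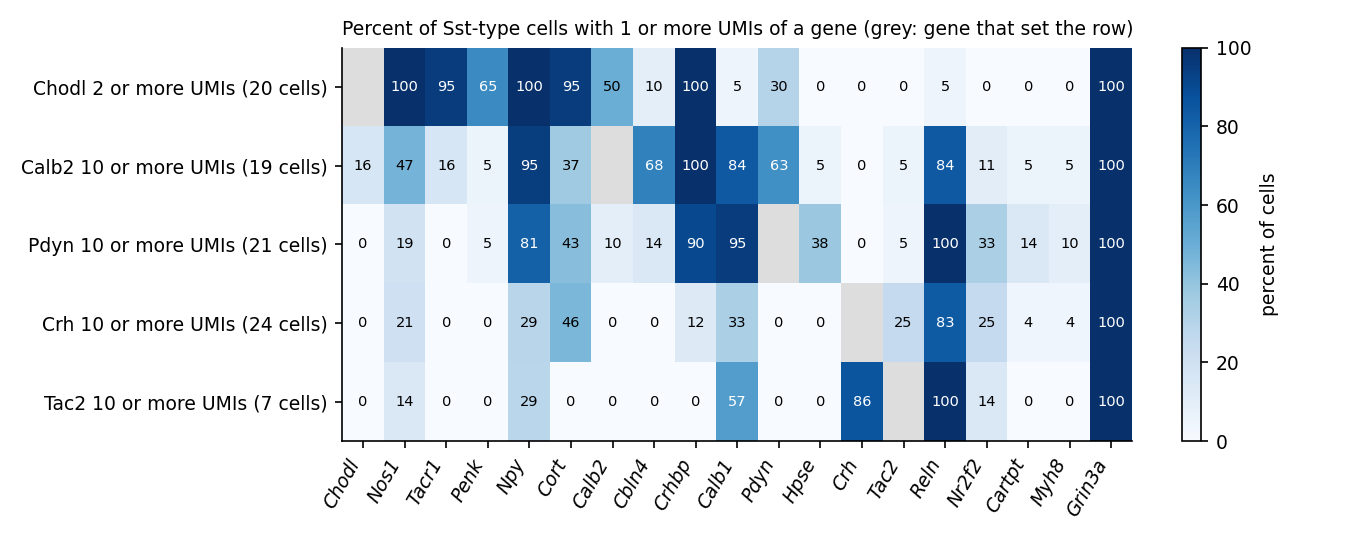
Percent of the cells of each group of Sst-type cells (rows, with the number of cells) that hold at least 1 UMI of a gene (columns), from 0 to 100 on a blue scale, with grey squares for the gene that set the group. Nos1, Tacr1 and Penk stand out in the Chodl row, Cbln4 in the Calb2 row and Crh in the Tac2 row.

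Excitatory neurons were compared by level alone, with no test, since the authors chose them by clustering on the same transcriptomes. Of 10752 genes, 329 (3.06%) were more than 4-fold higher and 286 (2.66%) more than 4-fold lower in MGE-type cells in all 3 libraries, by ratios of CPM plus 1. Among the highest ratios were those of Sst, Cort, Slc32a1, Crhbp and Lgals1. Median log2 ratios were 10.75 (10.72 to 10.75) for Sst, 8.55 (7.96 to 8.61) for Cort and 7.91 (7.78 to 8.18) for Slc32a1, with the range over 3 libraries in parentheses. The lowest were Neurod6, a basic helix-loop-helix factor of pyramidal cells, at -7.17 (-7.19 to -6.67), Rprm, Crym, Nrn1, Meis2 and Arpp21, the last at -6.07 (-6.27 to -6.03).

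Immediate early genes were past 4-fold lower in MGE-type than in excitatory neurons in 8 of 18 cases, and none was past 4-fold higher (median log2 ratio -2.14). Arc, a regulator of AMPA receptor uptake, stood at 17.8, 19.0 and 16.6 CPM in MGE-type and at 242, 247 and 259.6 CPM in excitatory neurons, and Egr3, a zinc finger factor, at 37.1, 25.3 and 29.6 against 297, 291 and 296 CPM. Egr1 did not pass the fold, with 701, 712 and 643 against 995, 961 and 978 CPM. Of 16 peptide genes 14 were past 4-fold higher and 2 lower, and of 9 excitatory markers 8 were lower.

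Viral barcode RNA, a readout that the rule did not use, was rare in MGE-type cells. At least 1 viral UMI was found in 10 of 151, 6 of 146 and 13 of 131 cells (6.62%, 4.11% and 9.92%, mean 6.89% ± 2.92, SD, n = 3 libraries). The shares were 4.94% ± 2.47 in CGE-type cells, 58.8% ± 2.03 in excitatory neurons and 3.58% ± 0.506 in non-neuronal cells. The last are not expected to project and served as a background of free RNA. They were 9480 cells outside the authors' table, with at least 5 UMIs of 1 glial or vascular marker list. At most 1 UMI of Gad1, Gad2 and Slc17a7 together was allowed, so cells with more RNA of these neuronal genes were left out. Median depths were 4075 UMIs in non-neuronal and 17853 in MGE-type cells. Counted at an equal depth of 5000 UMIs per cell, the MGE-type share was 2.91% ± 1.51, the CGE-type share 3.96%, the non-neuronal share 3.45% and the excitatory share 44.7%. The non-neuronal share at equal depth came from the 2644 cells that reached it. At equal depth the MGE-type share was above the non-neuronal share in 1 of 3 libraries, by 1.44 points in replicate 3. As counted, at 2 or more viral UMIs, it was above in 3 of 3, at 2.65% against 0.490%. Thinning took more UMIs from MGE-type cells (median 17899 before it) than from non-neuronal cells (5970). These shares therefore do not decide whether MGE-type cells exceeded the background of free RNA.

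MGE-type minus CGE-type shares were 1.94 ± 2.80 percentage points (SD, n = 3; higher in 2 of 3 libraries; two-sided exact sign-flip permutation test over libraries, p = 0.5, the smallest possible being 0.25). At equal depth the difference was -1.05 points. Of the 29 MGE-type cells with a viral UMI, 18 held 1, 9 held 2, 1 held 9 and 1 held 96 of the 141 UMIs in all. By kind, 25 of 361 Sst-type, 3 of 36 Pvalb-type and 1 of 31 remaining cells held one.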

How the data were processed

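The authors deposited raw UMI counts per gene and cell, made with Cell Ranger 3.0.2 on mm10 from 10x Chromium 3′ libraries according to the submitters' processing notes, which also name Seurat 3.1.4 and Scanpy 3.0.46. The deposited metadata of excitatory neurons served only to list those cells. The members, gene lists and limits were chosen with earlier results of these data known.

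Counts were summed per library and cell kind. The viral feature, taken as the 5 barcodes pooled, was left out of library sizes. MGE- and CGE-type sums were compared with edgeR 4.0.16 (R 4.3.3; TMM, filterByExpr, quasi-likelihood test, Benjamini-Hochberg adjustment over 11521 genes), with the library as a block, since both sums come from the same library. The residuals of same-library sums correlated at 0.037, -0.015 and 0.059. Genes were named as the 10 highest and 10 lowest log2 fold changes among called genes of 1 sign in 3 libraries and a mean of at least 30 CPM in the higher group (6 and 6 for excitatory neurons, at least 30 CPM in every library), and otherwise from the lists. Some genes of these lists are not reported here. Genes counted at 0 in a group were given a floor of 3 counts over the group. Ratios over 1 to 3 counts carry exact 95% intervals, which cover counting error only. For equal depth, cells were thinned to 5000 UMIs and shallower cells left out. For the shares of MGE-type cells and of their kinds, the cells were chosen again on the thinned counts. For all other results the choice before thinning was kept. Alternatives included DESeq2 1.42.0. The edgeR step was tested on simulated counts with 200 changed genes. Positions are those of GENCODE on GRCm38.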

Additional observations from a re-analysis of the deposited data

Results flagged for a closer look

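The sorted library was not part of the comparisons. Of its 1791 cells within limits, 4 met the rule for MGE-type cells (0.223%, 95% Wilson interval 0.0869% to 0.573%), against 2.20% ± 0.0931 in the unsorted libraries. They were flagged because a count above 0 appeared in data that the comparisons did not use, where 3 counts are the limit that a count of 0 allows. The 4 cells held 18 to 137 Sst UMIs and no Pvalb UMI, so that all were Sst-type, and their viral UMIs numbered 11, 0, 1 and 0. No other library was sorted, so that the difference in share could not be tested.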

How the results depend on the processing

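Counts of called genes moved most with the fold limit: a log2 fold change of at least 0.5 gave 2399 genes (1140 higher, 1259 lower). At equal depth 359 genes were higher and 488 lower, among 9289 tested. DESeq2 called 989 genes, no filter on low counts 1546, and leaving out a replicate 1251 to 1322. Without the replicate block 1237 genes were called, and the block changed no call of a gene named or listed. Of 121 called genes of the lists and the naming rule, at most 7 fell short of a threshold under any alternative, none of them among the 20 named by size, although up to 22 were too low to be tested. Cox6a2 reversed to -1.48 in Sst-type cells alone, and Pvalb was no longer past the threshold there because Sst-type cells were chosen against it. Past the fold against excitatory neurons were 232 genes with a pseudocount of 10 CPM and 1481 at a log2 ratio of 1.

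The share of MGE-type cells was 1.73% with no Slc17a7 UMI allowed. It was 1.96% at equal depth, with the rule applied again to thinned counts and shallower cells left out of the total. A UMI of Lhx6 remained in 243 of the 424 MGE-type cells thinned, and 2644 of 9480 non-neuronal cells reached that depth. Loss of Lhx6 lowers this share and loss of shallow cells raises it, so 1.96% cannot be compared with the share before thinning. The share of MGE-type among MGE- and CGE-type cells was 37.4% with at least 10 Gad1 and Gad2 UMIs and 32.7% with no Slc17a7. It was 25.0% when the rule was applied again to thinned counts. The Pvalb-type share was 5.09% when 10 UMIs and a 3-fold excess were required and 5.11% when cells were chosen again on thinned counts. The viral difference between MGE- and CGE-type cells was -0.401 points at 5 or more viral UMIs, -1.05 at equal depth and from 0.483 without replicate 3 to 3.28 without replicate 1, and no setting could pass a threshold of 0.05 with 3 libraries. The Sst-type against Pvalb-type alternatives were not run, because that test was not run.

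Depth limited Lhx6, seen at 1 UMI in 78 members, and therefore who was counted as a member. The 36 Pvalb-type cells limit the precision of every value given for them.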
